A study of Mus musculus with 4 samples.

Results

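Slc52a3, a riboflavin transporter, was lower in cultured neonatal mouse testes given WIN 18,446, while Rfk and Flad1, which encode the enzymes that turn riboflavin into its cofactors, differed by far less. The group described here is the riboflavin transporters and the enzymes of flavin synthesis: Slc52a3, Slc52a2, Rfk and Flad1. Its members were taken as all probe sets whose single gene symbol in the array annotation is one of these 4, which gave 5 of the 45101 probe sets in the table. Slc52a3 had 1 probe set, Rfk had 3 and Flad1 had 1. Another 3 probe sets list Flad1 together with a second gene and were left out by the rule. No probe set carries Slc52a2 as its symbol in the annotation used, and that transporter was not analysed here. The group was chosen on the difference of Slc52a3 between these same samples, so the values of its members are given as a description, with no test.

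Riboflavin, or vitamin B2, is not made by mammalian cells and enters them through carriers of the SLC52 family in the plasma membrane. Inside the cell riboflavin kinase, encoded by Rfk, adds a phosphate to give flavin mononucleotide (FMN), and FAD synthase, encoded by Flad1, then adds an adenylyl group to give flavin adenine dinucleotide (FAD). FMN and FAD are bound by flavoproteins, which carry electrons in fatty acid oxidation, the respiratory chain, thiol oxidation and many other reactions.

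The samples were testes of 129 strain mice taken at 2 days post partum and kept in organ culture for 24 h. One group received WIN 18,446 at 1 µM and the other its vehicle, dimethyl sulfoxide, and both lay in agar at 37 °C in a medium that held 10% fetal bovine serum. WIN 18,446 blocks the retinaldehyde dehydrogenases, which make retinoic acid, and the series asks what differs in the testis after a day with it. Transcript levels were measured on 4 Affymetrix Mouse Genome 430 2.0 arrays, 2 per group, and are given as log2 levels. The arrays are numbered 1 and 2 within each group. The labels do not say whether the numbered samples came from separate animals or cultures, so SDs and p-values reflect the spread between these samples alone, and that spread may be technical. Precision is limited by the number of arrays.

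Stra8, the retinoic acid-induced gene of premeiotic germ cells, read 7.02 and 6.42 with vehicle and 2.03 and 2.04 with WIN 18,446, where the highest bacterial control probe set of the table read 2.22. Array medians ran from 3.72 to 3.83. Across the 20895 probe sets with a mean level of at least 5, which are no independent replicates, the vehicle arrays correlated with a Pearson's r of 0.992 and the WIN arrays with one of 0.985. WIN array 1 stood apart in a control for ribosomal RNA: its reading for the 5' end of 18S was 6.55, and the other 3 arrays read 8.12 to 8.67. All 18 Sertoli cell markers listed for the check of the tissue passed the level filter, as did 12 of 16 germ cell markers on the array and all 7 of the Leydig cell markers on it.

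The level of Slc52a3 (probe set 1429292_a_at) was 13.32 and 13.29 with vehicle and 10.77 and 10.48 with WIN 18,446. Both vehicle arrays were high and nearly equal, both WIN arrays were low, and the groups did not overlap. The means were 13.30 ± 0.02 (log2, SD, n = 2) with vehicle and 10.63 ± 0.21 with WIN 18,446. The log2 difference, WIN 18,446 minus vehicle, was -2.68 (SE 0.12 in the fit across all probe sets), which is a level 6.39-fold lower. The smallest difference between any WIN array and any vehicle array was -2.52 and the largest -2.84. With WIN 18,446 the transporter still read far above the bacterial controls, so it was lower and not lost. Ranked from the most negative difference, the probe set was number 69 of the 20895 tested, with 0.325% of them below it. RefSeq lists 3 transcripts of Slc52a3, and the array holds 1 probe set of it, so its difference has no second probe set beside it.

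**Figure D1:**
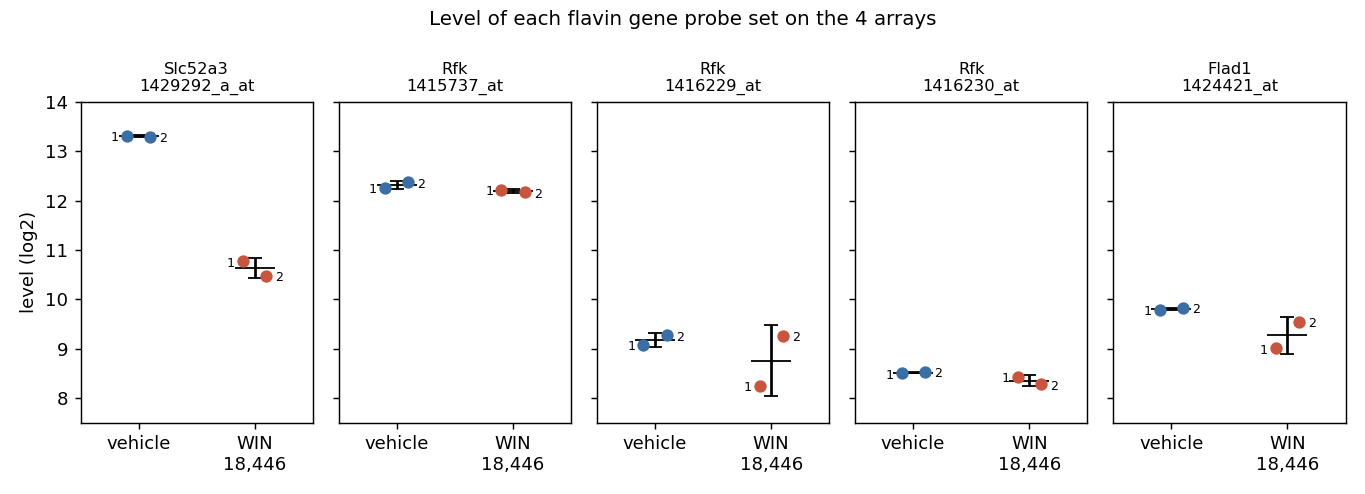
Log2 level (vertical axis) of the 5 probe sets of Slc52a3, Rfk and Flad1 with vehicle and with WIN 18,446; each point is 1 array with its number, the long bar is the group mean and the error bar the SD (n = 2). Slc52a3 falls from about 13.30 to 10.63, and in the Rfk and Flad1 panels the groups lie closer, with WIN array 1 apart from WIN array 2 for 1416229_at and for Flad1.

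Rfk, which encodes riboflavin kinase, differed little in the probe set of highest mean. That probe set (1415737_at) read 12.26 and 12.37 with vehicle and 12.22 and 12.16 with WIN 18,446. The WIN arrays lay just under the vehicle arrays without overlap, and the nearest values of the groups were 0.04 log2 units apart. The log2 difference was -0.12 (SE 0.08), or 1.09-fold lower. The probe set 1416230_at read 8.50 and 8.52 with vehicle and 8.43 and 8.27 with WIN 18,446, a log2 difference of -0.16 (SE 0.17), again without overlap. The third, 1416229_at, read 9.08 and 9.27 with vehicle against 8.25 and 9.26 with WIN 18,446. Here the groups overlapped, and only WIN array 1 was low: the log2 difference was -0.42 (SE 0.35), and 0.09, on the other side of 0, without that array. RefSeq lists 1 transcript of Rfk. For all 3 probe sets of the kinase the difference was smaller than 2 SEs.

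Flad1, which encodes FAD synthase, was measured by the probe set 1424421_at. Its level was 9.79 and 9.82 with vehicle and 9.01 and 9.54 with WIN 18,446. Both WIN arrays lay under both vehicle arrays, and the WIN arrays were 0.53 log2 units apart while the vehicle arrays were 0.04 apart. The means were 9.80 ± 0.03 and 9.27 ± 0.38 (SD, n = 2), a log2 difference of -0.53 (SE 0.21), or 1.44-fold lower. The difference was -0.26 without WIN array 1 and -0.80 without WIN array 2. WIN array 1, which also stood apart in the 18S control, was the lower WIN array for Flad1 and for Rfk 1416229_at. It was the higher one for Slc52a3, Rfk 1415737_at and Rfk 1416230_at. Its part in the Flad1 and Rfk values was not tested.

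All 5 probe sets passed the level filter, on every array of both groups, so none passed only through the group where it was high. A probe set is called here when its adjusted p in limma, with Benjamini-Hochberg adjustment over all those tested, is under 0.05. By that rule 1 of the 5, that of Slc52a3, was called lower, which restates how the group was chosen and is no test of it, against 5.18% of all probe sets tested in either direction and 2.91% lower. The groups did not overlap, with WIN 18,446 lower, in 4 of the 5, against 29.3% of all probe sets tested. How many probe sets limma called over the whole array depended on which arrays were in the fit, most of all on the vehicle arrays. Why it did was not tested. Nothing is read from the counts of members, since the contrast was used to choose the members. The sign of all 5 differences was negative, as it was for 53.5% of all probe sets tested.

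**Figure D2:**
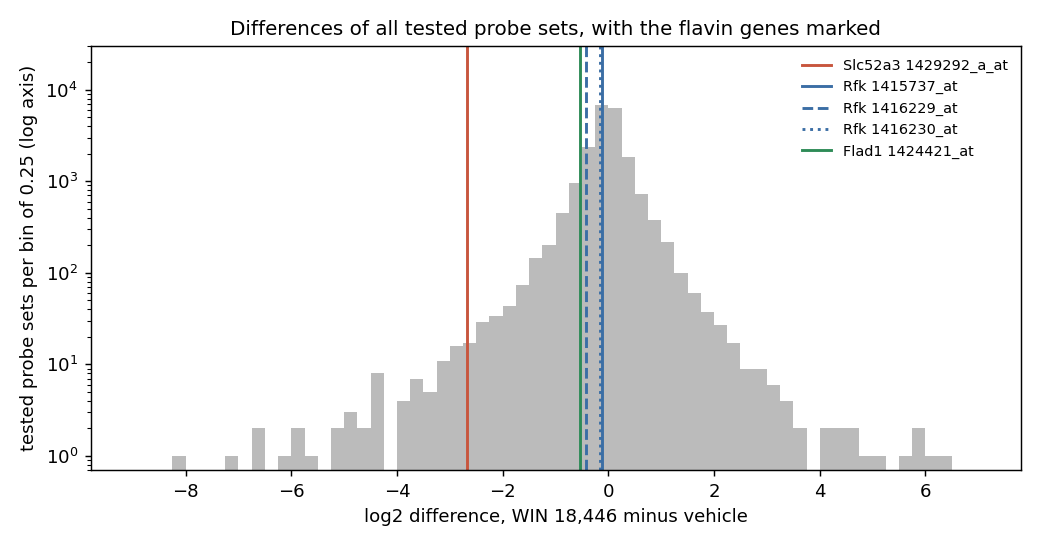
Histogram of the log2 difference, WIN 18,446 minus vehicle (horizontal axis), of all 20895 tested probe sets in bins of 0.25, with the number of probe sets on a log axis; vertical lines mark the 5 probe sets of Slc52a3, Rfk and Flad1. The line of Slc52a3 at -2.68 stands in the lower tail, while the lines of Rfk and Flad1, from -0.53 to -0.12, stand in the body of the distribution.

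The genes that handle flavins after synthesis, or outside the cell, were measured in a list of 5, of which 3 were tested. Slc25a32, a carrier of the inner mitochondrial membrane for folate and FAD, read 10.17 and 10.10 with vehicle and 10.16 and 10.28 with WIN 18,446. The groups overlapped, and the log2 difference was 0.09 (limma adjusted p = 0.731). Nt5e, an ectonucleotidase, and Alpl, the tissue-nonspecific alkaline phosphatase, both act on extracellular nucleotides and phosphate esters. Nt5e read 13.68 and 13.54 with vehicle against 13.19 and 13.26 with WIN 18,446 (log2 difference -0.39, limma adjusted p = 0.0526). A dimmer probe set of Nt5e gave a larger difference, -1.10 (limma adjusted p = 0.056), and another read 2.08 to 2.09, at background. Alpl read 10.35 and 10.94 against 11.61 and 11.84 (1.07, limma adjusted p = 0.0603). None of the 3 was called in limma, against 6.4% of all genes tested. An unadjusted p under 0.05 was found for 2 of them, beside 4598 of the 20895 probe sets tested. Enpp3, a nucleotide pyrophosphatase, lay under the level filter.

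Flavoproteins of the mitochondria, the users of the FMN and FAD that Rfk and Flad1 make, showed no call. The list held 41 genes, with the acyl-CoA dehydrogenases of fatty acid oxidation, the electron transfer flavoproteins, subunits of respiratory complexes I and II and the dehydrogenases of choline, proline and glycerol phosphate. Of 32 tested, each by its probe set of highest mean, limma called 0 (5 at an unadjusted p under 0.05), against 6.4% of the 10970 genes tested (2.94% higher and 3.46% lower). An unadjusted p under 0.05 was common over the array, at 4598 of the 20895 probe sets tested. The log2 differences of the 32 genes ran from -0.66 to 0.59, and 14 were above 0 and 18 below. The median was -0.08, beside -0.02 over all genes tested.

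The lowest p among them was that of Chdh, the choline dehydrogenase that starts betaine synthesis. It read 11.37 and 11.09 with vehicle against 10.67 and 10.47 with WIN 18,446 (log2 difference -0.66, SE 0.14, limma adjusted p = 0.0729). Aifm1, a flavoprotein of the intermembrane space known for its part in cell death, read 12.71 and 12.62 against 12.87 and 12.95 (0.24, limma adjusted p = 0.137). The groups did not overlap in either gene, and neither passed the test. Gfer, a sulfhydryl oxidase of the mitochondrial import pathway, had 2 probe sets of opposite sign, 0.40 and -0.50 (limma adjusted p = 0.125 and 0.0696), and no direction is given for it.

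Flavoproteins outside that list gave 1 call. This list held 73 genes of the cytosol, endoplasmic reticulum, peroxisome, nucleus and plasma membrane, of which 38 were tested. Nqo2, a quinone reductase with FAD, fell from 10.05 and 9.98 with vehicle to 9.10 and 8.99 with WIN 18,446 (log2 difference -0.97, SE 0.14, limma adjusted p = 0.0296). Both WIN arrays were low and the groups did not overlap. The other 2 probe sets of Nqo2 were lower as well, by log2 differences of -1.28 and -2.31 (limma adjusted p = 0.0262 and 0.0225). The call for the probe set of highest mean was lost in limma without vehicle array 1 (adjusted p = 0.317), vehicle array 2 (0.22) or WIN array 1 (0.0517), while the difference stayed between -1.02 and -0.91. With no level filter the adjusted p was 0.0895.

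The other 37 were not called, which left 1 lower and 0 higher of 38, against 3.46% lower and 2.94% higher of all genes tested. At an unadjusted p under 0.05 were 13 of the 38, beside 4598 of the 20895 probe sets tested. The median log2 difference of the list was -0.02, the same to 2 decimals as that of all genes tested, and 17 were above 0 and 21 below. Ero1a, the FAD-dependent oxidase that drives disulfide formation in the endoplasmic reticulum, read 12.55 and 12.94 with vehicle against 13.34 and 13.68 with WIN 18,446 (log2 difference 0.77, limma adjusted p = 0.0755). Its other 2 probe sets gave 0.89 and 1.64 (limma adjusted p = 0.0487 and 0.0424), so that whether this gene was called rested on the probe set. Hao2, a peroxisomal hydroxyacid oxidase with FMN, read 11.53 and 11.05 against 10.65 and 10.51 (-0.71, limma adjusted p = 0.0994). With the probe set of largest variance for each gene in place of that of highest mean, 3 of the 38 were called, 1 higher and 2 lower. Under the level filter lay 23 genes of the list, 11 of them at or below the bacterial controls, and these were not tested. Among the 23, Rnls read 5.46 and 5.04 with vehicle against 4.16 and 4.47 with WIN 18,446. Pipox, with a higher mean, read 2.06 and 2.40 against 2.36 and 3.20.

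**Figure D3:**
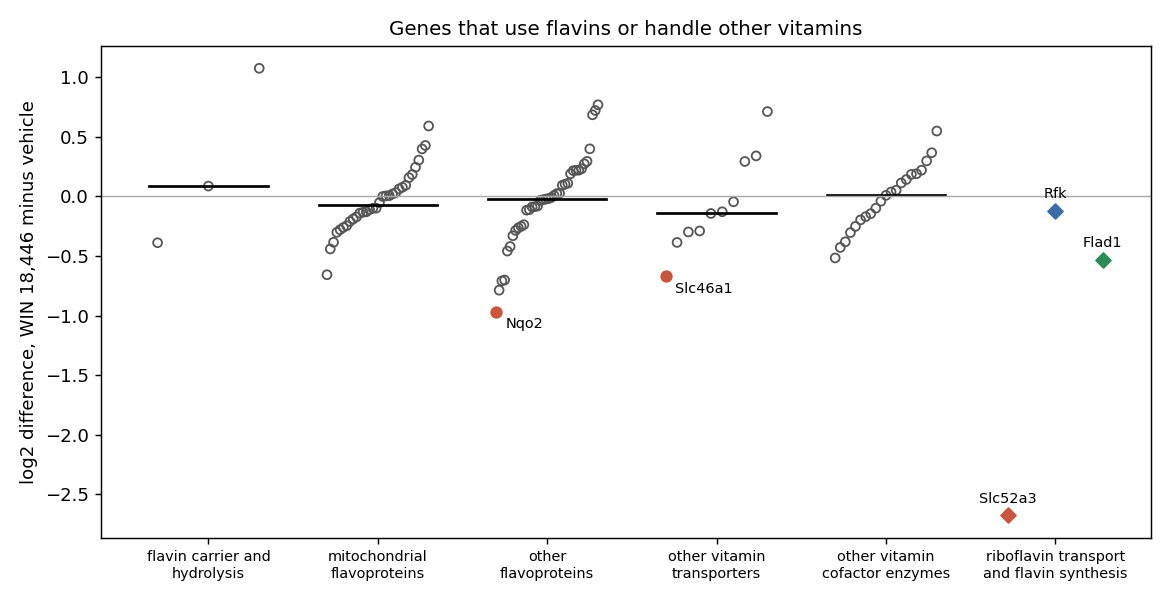
Log2 difference, WIN 18,446 minus vehicle (vertical axis), of each tested gene in 5 lists, with Slc52a3, Rfk and Flad1 (each by its probe set of highest mean) as diamonds on the right; filled circles are called in limma, open circles are not, and the bar is the list's median. Nqo2 (-0.97) and Slc46a1 (-0.67) are the filled circles. Every gene of the 5 lists lies above Slc52a3 (-2.68), which was chosen for its difference.

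Carriers of other water-soluble vitamins were set beside Slc52a3. Of 15 listed, 10 were tested, and their log2 differences ran from -0.67 to 0.71. All were closer to 0 than the -2.68 of Slc52a3, which was chosen for its difference, so the comparison is no test. Slc46a1, the proton-coupled folate transporter, was the 1 call: it fell from 11.31 and 11.44 with vehicle to 10.74 and 10.66 with WIN 18,446 (log2 difference -0.67, SE 0.11, limma adjusted p = 0.0361). Both WIN arrays were low, and its other probe set fell by 0.84 on the log2 scale (limma adjusted p = 0.0413). The Slc46a1 call was lost in limma when any 1 array was left out: the adjusted p was 0.309 without vehicle array 1, 0.255 without vehicle array 2, 0.0612 without WIN array 1 and 0.0576 without WIN array 2, with differences from -0.74 to -0.60. It was lost too with no level filter (0.11) and with no variance trend (0.0737).

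Tcn2, the plasma carrier of vitamin B12, read 13.18 and 13.01 with vehicle against 12.70 and 12.72 with WIN 18,446 (log2 difference -0.39, limma adjusted p = 0.0662). Slc2a1, a glucose carrier that also takes up dehydroascorbate, read 13.86 and 14.04 against 14.22 and 14.26 (0.29, limma adjusted p = 0.0989). Neither passed the test. Over the list 3 differences were above 0 and 7 below, with a median of -0.14, and 5 of the 10 had an unadjusted p under 0.05 in limma.

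Enzymes that make cofactors from other vitamins were set beside Rfk and Flad1. Of 25 listed, 21 were tested, and limma called 0 (2 at an unadjusted p under 0.05), against 6.4% of all genes tested. Differences ran from -0.52 to 0.55, with a median of 0.01. The difference of Flad1 (-0.53) lay just below that range, and that of Rfk (-0.12) inside it. Nampt, the rate-limiting enzyme of NAD salvage, read 10.54 and 10.38 with vehicle against 10.99 and 11.03 with WIN 18,446 (log2 difference 0.55, limma adjusted p = 0.0618). Naprt, which starts NAD synthesis from nicotinic acid, read 9.25 and 9.14 against 8.88 and 8.66 (-0.43, limma adjusted p = 0.217). Pank1, a pantothenate kinase of coenzyme A synthesis, gave -0.30 in its probe set of highest mean (limma adjusted p = 0.23). Its other 3 probe sets gave -0.71, -0.75 and -0.70 (limma adjusted p = 0.0262, 0.033 and 0.0987), so that this gene's call also rested on the probe set. Some genes, such as Mtrr and Ppcdc, were placed both on this list and among the flavoproteins outside mitochondria.

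The genes whose profile lay nearest to that of Slc52a3 were found by the root mean square difference over the 4 arrays, after each gene's own mean was taken away. They follow the contrast by construction and are named as a description. Gdpd3, a glycerophosphodiester phosphodiesterase, was the nearest at 0.06 log2 units, with levels of 9.11 and 9.23 with vehicle and 6.64 and 6.38 with WIN 18,446. Tmem114, a membrane protein, followed at 0.07, with 13.29 and 13.24 against 10.90 and 10.55. Wnt4, a signalling ligand best known for its role in ovary and kidney development, stood at 0.08, with 9.64 and 9.62 against 7.29 and 6.92. As for Slc52a3, the vehicle arrays of these 3 were nearly equal and WIN array 2 was the lower of the WIN arrays.

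Itpk1, an inositol phosphate kinase, came next at 0.12, with 10.29 and 10.27 against 7.67 and 7.70. Cdc42ep5, an effector of the small GTPase Cdc42, was the fifth at 0.14, with 12.18 and 12.09 against 9.73 and 9.66. In these 2 the WIN arrays lay closer together than in Slc52a3. The log2 differences of the 5 genes ran from -2.65 to -2.44. Second probe sets of Wnt4 and Cdc42ep5 were lower by similar amounts, -2.58 and -2.88, while that of Itpk1 read about 2.10 on all 4 arrays, at background.

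**Figure D4:**
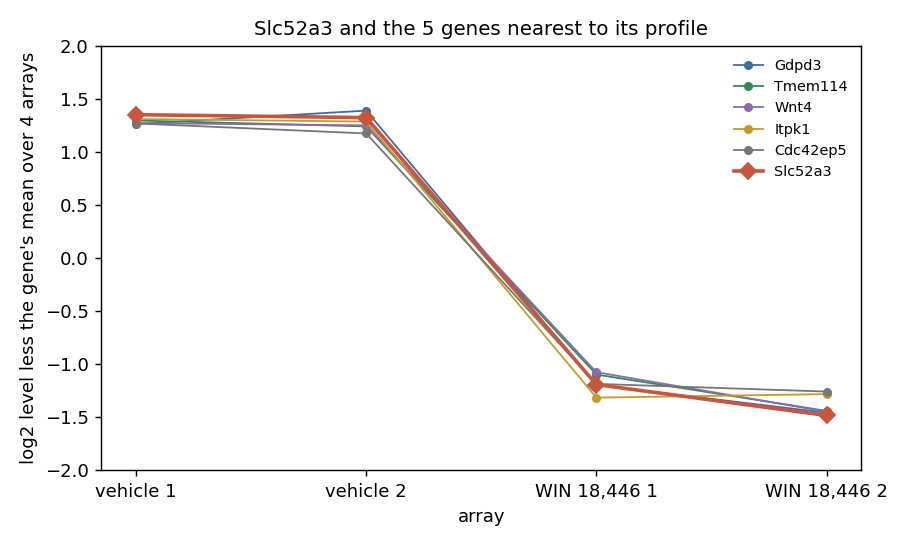
Log2 level less the gene's own mean over the 4 arrays (vertical axis) on each array, for Slc52a3 (diamonds) and the 5 genes nearest to it, Gdpd3, Tmem114, Wnt4, Itpk1 and Cdc42ep5. All 6 lines run high on both vehicle arrays and low on both WIN arrays, and the root mean square distance to Slc52a3 is 0.06 to 0.14 log2 units.

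The protein-coding genes next to Slc52a3 in the order of the RefSeq annotation (GRCm38.p6), 5 on each side, differed by less than it did. All 10 have a probe set on the array, and 7 had at least 1 that was tested, 18 probe sets in all. Limma called 0 of the 18, against 5.18% of all probe sets tested. An unadjusted p under 0.05 was found for 0 of the 18, beside 4598 of the 20895 probe sets tested. Their log2 differences ran from -0.68 for Tcf15, a transcription factor, to 0.47 for 1 of 4 probe sets of Psmf1, a proteasome inhibitor. The nearest neighbour on one side, Fam110a, read 7.03 and 7.44 with vehicle against 7.03 and 7.15 with WIN 18,446 (-0.14, limma adjusted p = 0.77). On the other side Scrt2, a neuronal transcription factor, read at background in all 4 of its probe sets. These neighbours were chosen after the values of Slc52a3 were seen. Since Slc52a3 was itself chosen for its difference, that they differed by less is no test.

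The array measures whole testes, in which fewer cells of a type and less RNA per cell cannot be told apart. Other lists moved in the same samples as Slc52a3. Over all 10970 genes tested, limma called 2.94% higher and 3.46% lower. Over all 20895 probe sets tested, 4598 had an unadjusted p under 0.05. Of 8 tested genes of the retinoic acid response 4 fell and 0 rose in limma, with a median log2 difference of -0.76. Among them Stra6, the receptor for retinol uptake, read 8.19 and 8.28 with vehicle against 6.52 and 6.26 with WIN 18,446 (-1.84, limma adjusted p = 0.0192), and Dhrs3, a retinaldehyde reductase, gave -1.36 (limma adjusted p = 0.0135). The 9 housekeeping genes tested had a median of 0.08, and limma called 0 of them (2 at an unadjusted p under 0.05). Of 18 Sertoli cell genes tested, 7 fell and 0 rose in limma, and the mean level of the list was 12.83 on both vehicle arrays, and 12.43 and 12.37 with WIN 18,446. The members of that list split, with 6 of the 18 above 0 and 13 at an unadjusted p under 0.05. Nr0b1, an orphan nuclear receptor of Sertoli and steroidogenic cells, read 11.68 and 11.62 with vehicle against 8.09 and 7.82 with WIN 18,446, a log2 difference of -3.69 that lies further from 0 than that of Slc52a3 (limma adjusted p = 0.00387). Cldn11, a tight junction claudin, and Sox9, a transcription factor of Sertoli cells, gave -1.25 and -1.15 (limma adjusted p = 0.00781 and 0.0121). Amh, the anti-Müllerian hormone, read 9.37 and 9.85 against 11.12 and 10.60, a difference of 1.25 in the other direction that was not called (limma adjusted p = 0.0575). The 9 tested endothelial genes had a median log2 difference of -0.92, with list means of 8.43 and 8.85 with vehicle and 7.89 and 7.79 with WIN 18,446. All 9 differences were below 0, from -1.33 to -0.0006, and 7 had an unadjusted p under 0.05 in limma, with 1 called lower and 8 not called. Under the level filter, Tie1 read 5.16 and 4.97 with vehicle against 2.43 and 2.32 with WIN 18,446. Pecam1, Kdr and Sox17, also under the filter, had lower means with WIN 18,446 as well. Of the 2 neutrophil genes tested, S100a8 and S100a9, both fell, with list means of 12.42 and 12.45 with vehicle and 5.58 and 8.10 with WIN 18,446. Elane, Ltf, Mpo and Ngp of that list were at or below the bacterial controls on all 4 arrays. Camp, of the same list, read 2.28 on vehicle array 1 and 2.05 on the other 3.

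Among 20 cell cycle genes 14 rose and 0 fell in limma, against 2.94% and 3.46% of all genes tested. The list means were 11.23 and 11.53 with vehicle and 12.18 and 12.28 with WIN 18,446. The germ cell list stood at 10.05 and 10.07 with vehicle and at 10.12 and 10.13 with WIN 18,446. Limma called 2 of 12 lower, Sall4 (log2 difference -0.60) and Tdrd9 (-1.02), and 0 higher. The members of the list split, with 9 of the 12 above 0 and a median log2 difference of 0.19. The Leydig cell list, with 0 of 7 called (4 at an unadjusted p under 0.05), had means of 12.43 and 12.18 with vehicle and 12.07 and 11.95 with WIN 18,446. Of 12 peritubular and stromal genes 2 fell and 0 rose, with list means of 12.73 and 12.84 against 12.50 and 12.50. The macrophage list (0 of 3 called in limma, 0 at an unadjusted p under 0.05), the erythroid list (0 of 1, with 1) and the epididymal and mesothelial list (0 of 5, with 1) had few tested members. C1qa, Cd163, Cx3cr1 and Fcgr1 of the macrophage list and Alas2, Epor and Hba-a1 of the erythroid list were at or below the bacterial controls on all 4 arrays. Hbb-b2, a globin gene and the 1 tested gene of the erythroid list, read 10.53 and 10.38 with vehicle against 8.62 and 9.45 with WIN 18,446. Its groups did not overlap (log2 difference -1.42, limma adjusted p = 0.0618). The other macrophage markers under the level filter read 2.31 to 2.95 (Adgre1), 4.29 to 5.13 (Cd68) and 1.89 to 2.67 (Csf1r). The tested members of the macrophage list had means of 7.94 and 8.25 with vehicle and 7.21 and 8.21 with WIN 18,446. The part of any of these cell types in the Slc52a3 difference was not tested.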

How the data were processed

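Total RNA of 4 samples, about 100 ng each, was amplified, biotin-labelled and hybridised, per the labels' protocols. The deposited table gives 1 log2 level per probe set and array, with the arrays brought to a common distribution by the authors. RMA and GCRMA are both named in the submitters' processing notes, and which of them made the table is not stated. That the scale is log2 and not centred was read from the values, which reach 16.24. After 64 control probe sets were removed, limma 3.58.1 (R 4.3.3) was run on the 20895 whose mean level reached 5, with lmFit, eBayes and a variance trend; tests were two-sided and p-values adjusted by Benjamini-Hochberg. The fit was tested on simulated data, where false calls came well above the nominal rate and the smaller changes were often missed. A single call may thus be false, and a list with no call may hold genes that changed. No exact permutation test is given, since 2 arrays against 2 allow no p under 0.333. Gene names come from GEO's array annotation: 34945 probe sets have 1 symbol, 932 several and 9160 none. A gene in a list stands by its tested probe set of highest mean.

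The members and lists were chosen with earlier results of these data known. The genes named are the members, Stra8 and the called genes of each flavin or vitamin list, or its 3 of smallest p where fewer than 3 were called. The 5 nearest profiles and up to 3 genes of smallest p of each other list are named too. Amh, the listed genes and markers under the level filter and the genes next to Slc52a3 were added after their values were seen. Alternatives were other level filters, normalization, moderation and threshold, the probe set of largest variance, the replicate number as a block, and each array left out in turn. With 1 array left out, its partner was taken to vary as the arrays of the other group do.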

Additional observations from a re-analysis of the deposited data

How the results depend on the processing

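The difference of Slc52a3 was -2.82 to -2.53 when each array was left out in turn, -2.68 after quantile normalization again and -2.71 with equal array medians. The signs of the Flad1 difference (-0.80 to -0.26) and of the Rfk differences in 1415737_at (-0.17 to -0.07) and 1416230_at (-0.24 to -0.09) held as well, while Rfk 1416229_at ran from -0.92 to 0.089, above 0 without WIN array 1. Counts called in limma depended on the settings, and the causes were not tested. Of all probe sets, 1083 in the fit as reported, 3 were called with no level filter (5250 at an unadjusted p under 0.05), 372 with no variance trend, 2216 at an adjusted p under 0.10 and 0 to 1398 with 1 array left out, the 0 both without vehicle array 1 (2455) and without vehicle array 2 (2820). Mitochondrial flavoprotein genes called were 1 with equal array medians, 1 with the replicate block and 1 at an adjusted p under 0.10, and 0 with any array left out. Other flavoprotein genes called were 0 with no level filter (14 at an unadjusted p under 0.05), 2 at a mean of at least 7, 3 with the replicate block, 3 at an adjusted p under 0.10, 3 with the probe set of largest variance and 0 to 1 with 1 array left out. Other vitamin transporter genes called were 0 with no level filter (5 at an unadjusted p under 0.05), 2 after quantile normalization again, 0 with no variance trend (4), 3 at an adjusted p under 0.10 and 0 with any array left out. Other vitamin cofactor enzyme genes called were 1 at a mean of at least 7, 1 at an adjusted p under 0.10 and 0 to 1 with 1 array left out. The replicate numbers pair nothing that the labels name, and deviations of same-numbered arrays correlated at 0.014; the replicate block gave 1467 calls over all probe sets, and in this balanced design it cannot alter the members' differences. With 2 arrays per group, small differences such as those of Rfk cannot be told from the spread between arrays.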
